A study of Mus musculus with 6 samples.

Results

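CD8 T cells with Pdcd1 or Lag3 transcripts were described among droplet-captured single cells from material that the labels tie to YUMM2.1, a mouse melanoma cell line. A cell belonged to them when it held at least 1 unique molecular identifier (UMI, a tag that marks 1 captured transcript molecule) of Cd3e or Cd3d, at least 1 of Cd8b1, none of Cd4, Foxp3 or Csf1r, fewer than 2 of Mki67 and Top2a together, and at least 1 of Pdcd1 or Lag3. These 10 genes chose the cells, so their own levels are description only. The rule took 256 of the 6364 cells kept in both libraries, 178 from Empty vector and 78 from Bmal1 WT, and left 170 otherwise identical CD8 T cells without a UMI of Pdcd1 or Lag3, 131 and 39, for comparison.

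CD8 T cells recognise peptides on MHC class I through the T cell receptor and the CD8 co-receptor and kill target cells with perforin and granzymes. Pdcd1 encodes PD-1 and Lag3 encodes LAG-3, surface receptors that are induced by T cell activation and dampen signalling, and both stay high on T cells under lasting antigen exposure. In tumours such cells are known to express the nuclear factor TOX and to range from stem-like cells with TCF1, encoded by Tcf7, to terminally dysfunctional cells with further inhibitory receptors.

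The 2 groups were Empty vector, with the hashtags h1, h7 and h8, and Bmal1 WT, with h3, h5 and h9. BMAL1 is a core transcription factor of the circadian clock, and the study addressed how its status in melanoma bears on tumour immunity. Hashtags are antibody-borne barcodes that mark pooled replicates, so each group was 1 droplet library of 3 hashtagged replicates, and group and library cannot be told apart. The labels gave only the cell line as source. Whether the cells came from tumours is not stated in them, nor whether each hashtag was a separate animal, in which background the vectors were carried, or the strain and age of any animal. P-values below therefore measure the spread between these hashtag samples.

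The kept cells had medians of 5094 UMIs in Empty vector and 7570.5 in Bmal1 WT, and 3222 and 1621 of them carried exactly 1 hashtag. Of the 256 cells, 234 carried exactly 1: 115, 12 and 35 for h1, h7 and h8, and 30, 25 and 17 for h3, h5 and h9. Their summed UMIs ran from 71163 (h7) to 799390 (h1), and those of the cells without Pdcd1 or Lag3 from 43320 (h9) to 339990 (h1). Of the cell barcodes, 5 occurred in both libraries, none of them in the 256 cells.

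The cells carried the markers of their name. Cd8a, the other CD8 chain and not part of the rule, had a UMI in 166 of 178 Empty vector cells (93.3%, 95% exact binomial interval 88.5 to 96.5) and in 72 of 78 Bmal1 WT cells (92.3%, 84.0 to 97.1). Fibroblasts of the same libraries gave the background, chosen by collagen UMIs and by holding no UMI of Ptprc, Cd3e or Cd3d. Fibroblasts with free transcripts of these genes were thus left out, and what that did to the background was not tested. Cd8a was seen in 1 of 111 (0.901%) and 0 of 175, which allows a share of up to 1.71%. Their medians were 14762 and 22519 UMIs, against 5319.5 and 6548 in the CD8 T cells. These intervals and limits cover counting error only. Levels are given in CPM, counts per 1000000, which are the UMIs of a gene scaled to the summed UMIs of the cells of 1 hashtag. Summed over 12 T cell identity genes outside the rule, the level was 5399 to 6380 CPM in the Empty vector hashtags. In the Bmal1 WT hashtags it was 5587 to 5975. In GRCm38, with 1-based GENCODE M21 coordinates, the 6 genes that mark the cells lie at chr6:71373427-71379173 (Cd8a, plus strand), chr6:71322788-71337494 (Cd8b1, plus), chr1:94038305-94052553 (Pdcd1, minus), chr6:124904361-124911705 (Lag3, minus), chr4:6686353-6991557 (Tox, minus) and chr9:123806475-123811760 (Cxcr6, plus).

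Markers of other cells were low with exceptions that touch results below. Among the cells with Pdcd1 or Lag3, 10 of 178 and 2 of 78 held 10 or more UMIs of macrophage, dendritic, B cell, fibroblast and melanoma markers in sum, against 4 of 131 and 1 of 39 without. The 10 dendritic markers summed to 1703 UMIs in the Empty vector cells, of which 3 cells held 1465, and to 30 in the Bmal1 WT cells. They ranged from 14.1 to 2090 CPM over the Empty vector hashtags and from 46.8 to 68.5 over the Bmal1 WT hashtags, with Cd209a at 0 in both. The macrophage markers ranged from 14.1 to 36.3 and from 0 to 13.4 with C1qa and C1qc at 0, the B cell markers from 67.6 to 141 and from 48.9 to 112 with Cd79a, Ms4a1, Pax5 and Ly6d among those at 0, the fibroblast markers from 0 to 8.05 and from 9.78 to 20.1 with Pdgfra, Pdgfrb and Lum at 0, and the melanoma markers from 8.05 to 28.1 and from 13.4 to 29.3 CPM, with Erbb3 and S100b among those at 0 in Empty vector and Sox9 and Mitf at 0 in Bmal1 WT.

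Both receptors were found together in most of these cells in Empty vector. There, 54 cells had Pdcd1 only (30.3%), 18 had Lag3 only (10.1%) and 106 had both (59.6%), and in Bmal1 WT the numbers were 33 (42.3%), 7 (8.97%) and 38 (48.7%). Over all 256 cells the median was 2 UMIs of Pdcd1 and 1 of Lag3, with a highest value of 19 for each. Of the cells, 29 and 14 had a sum of exactly 1 UMI and so sat just inside the rule. Fibroblasts of Empty vector and Bmal1 WT held a Pdcd1 UMI in 1 of 111 and 0 of 175 cells. They held a Lag3 UMI in 6 of 111 (5.41%) and 10 of 175 (5.71%). These fibroblasts were deeper than the CD8 T cells, at medians of 14762 and 22519 UMIs. With every cell set to 2000 UMIs, the expected Lag3 shares in fibroblasts were 0.444% and 0.658%. In the cells with Pdcd1 or Lag3 they were 40.4% and 30.6%. Lag3 helped choose these cells, so that contrast is description only. Setting cells to 2000 UMIs also takes away a larger part of the UMIs of the deeper fibroblasts, any free transcripts included. Whether free transcripts placed cells just inside the rule was not tested. Beside the 131 and 39 cells without Pdcd1 or Lag3, 79 and 21 cells failed only through Cd8b1, of which 22 and 10 had Cd8a. A further 50 and 26 failed only through Mki67 and Top2a, which mark dividing cells, and 7 and 3 only through Cd4, 11 and 2 only through Foxp3, and 9 and 3 only through Csf1r.

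The share of CD8 T cells with Pdcd1 or Lag3 was 61.8%, 41.4% and 48.6% in the Empty vector hashtags h1, h7 and h8, and 63.8%, 65.8% and 70.8% in the Bmal1 WT hashtags h3, h5 and h9. All 3 Bmal1 WT values lay above all 3 Empty vector values. The means were 50.6% ± 10.4 and 66.8% ± 3.61 (SD, n = 3 each), a difference of 16.2 percentage points (two-sided exact permutation p = 0.1, the smallest that 3 against 3 can give; 0.4 after Benjamini-Hochberg adjustment over 4 shares). Without h1, the largest Empty vector sample, the difference was 21.8 points.

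Depth moved with this share. Over both libraries, 41.9% of the CD8 T cells under 2000 UMIs held Pdcd1 or Lag3, 47.5% and 64.0% of those in the next deeper classes (medians of 3027 and 5514 UMIs) and 71.0% of those in the deepest (median 11260 UMIs). With every cell set to 2000 UMIs, the expected shares were 50.5%, 33.1% and 36.0% for h1, h7 and h8, and 42.0%, 50.5% and 57.1% for h3, h5 and h9. At equal depth the groups overlapped, with means of 39.9% ± 9.31 and 49.9% ± 7.53 (SD, n = 3 each) and a difference of 10.0 points (two-sided exact permutation p = 0.2, adjusted p = 0.6). This setting left out 11 and 2 shallower cells with, and 17 and 1 without, Pdcd1 or Lag3.

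**Figure D1:**
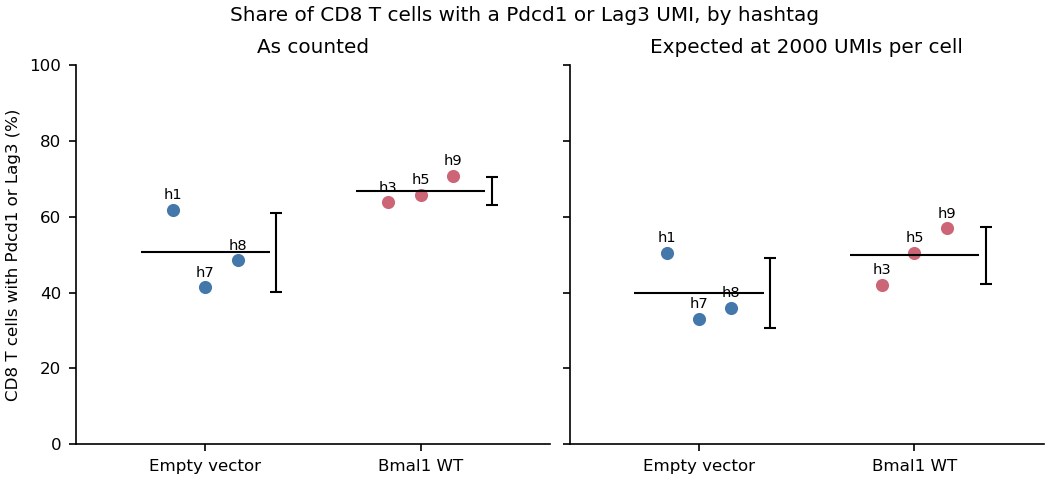
Percent of CD8 T cells with a Pdcd1 or Lag3 UMI in each hashtag, as counted (left) and with every cell set to 2000 UMIs (right). Points are hashtags, lines are group means and brackets span 1 SD on either side. As counted, Bmal1 WT hashtags lie between 63.8% and 70.8%, above all Empty vector hashtags, while at equal depth the groups overlap.

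Other denominators gave no separation. As a share of all cells, CD8 T cells with Pdcd1 or Lag3 made up 8.20%, 1.72% and 3.12% of h1, h7 and h8 and 3.75%, 5.05% and 5.21% of h3, h5 and h9 (difference 0.326 points, two-sided exact permutation p = 0.9, adjusted p = 0.9). Of cells with Cd3e or Cd3d they made up 23.6%, 5.24% and 10.1%, and 15.5%, 21.01% and 22.1% (difference 6.56 points, exact permutation p = 0.4, adjusted p = 0.533). Within the cells themselves, 62.6%, 75% and 48.6% of the Empty vector hashtags and 53.3%, 40% and 52.9% of the Bmal1 WT hashtags held both receptors, 13.3 points lower in Bmal1 WT by the means with overlapping groups (exact permutation p = 0.3, adjusted p = 0.533). On all 3 of these measures h1 or h7 gave the highest value, with h1 the highest on the first pair and h7 on the last.

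The main comparison set the cells with Pdcd1 or Lag3 against those without, as sums per hashtag with the hashtag as a block. Of 6059 genes tested, 270 were higher (4.46%) and 158 lower (2.61%) in the cells with Pdcd1 or Lag3 at an edgeR adjusted p under 0.05. All 6 sums lay above the other 6 for 117 genes (1.93%) and below them for 43 (0.71%). Tox was higher, as were 7 of 9 tested genes of the inhibitory receptor list and 5 of 11 of the co-stimulatory receptor list. Of the genes of naive and memory T cells, 17 of 17 tested were lower. These lists were chosen with earlier results of these data known, so their counts are description only. The median over all genes tested was 0.08 on the log2 scale. Log2 fold changes are with over without, and UMI counts of a gene are over the cells with exactly 1 hashtag. In a further fit every CD8 T cell was thinned to 2000 UMIs and split again by its remaining Pdcd1 and Lag3 UMIs. Cells that lost these UMIs counted as without, and the other terms of the rule stayed at full depth. There, 74 genes were higher and 51 lower of 2609 tested, and 111 of these 125 were among the 428. DESeq2 called 214, of which 213 were shared.

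Tox, the factor that sustains the dysfunctional T cell state, was one of the clearest differences. In the cells with Pdcd1 or Lag3 it was at 542, 323 and 487 CPM in h1, h7 and h8, and at 279, 234 and 411 in h3, h5 and h9. In the cells without it was at 97.1, 77.3 and 90.8, and at 50.6, 33.5 and 92.3. The lowest value with was above the highest value without (log2 fold change 2.39 ± 0.22 SE, edgeR adjusted p = 2.98e-11). A Tox UMI was found in 140 of 178 cells with and 41 of 131 without in Empty vector (78.7% and 31.3%), in 51 of 78 and 9 of 39 in Bmal1 WT (65.4% and 23.1%), and in 0 of 111 and 1 of 175 fibroblasts. At 2000 UMIs the expected shares with and without were 56.6% and 16.8% for Empty vector and 37.2% and 10.9% for Bmal1 WT.

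Cxcr6, the receptor for CXCL16 found on tissue-resident T cells, was at 926, 604 and 612 CPM with Pdcd1 or Lag3 in the Empty vector hashtags and at 579, 609 and 1164 in the Bmal1 WT hashtags. Without them it was at 412, 193 and 225, and at 243, 352 and 46.2. Again all sums with exceeded all sums without (1.48 ± 0.20, edgeR adjusted p = 5.16e-07). Cd8a was higher too, at 808 to 1204 with and 357 to 693 without (0.74 ± 0.15, edgeR adjusted p = 0.000461), although at 2000 UMIs per cell its adjusted p was 0.0516 with a log2 fold change of 0.56. Cd8a belongs to the list of 12 T cell identity genes, of which 4 were higher and none lower with a median of 0.29. The other 3 were Cd3g, a CD3 chain (1.33), Trbc2, a T cell receptor beta constant gene (0.43), and Zap70, the kinase that relays the receptor's signal (0.73). Trbc2 lost its call in 13 of 19 alternatives and Zap70 in 9, and with DESeq2 or at 2000 UMIs per cell 2 genes of the list were higher.

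The list of inhibitory receptors other than the 2 of the rule also held the ectoenzymes Entpd1 and Cd38, and Cd200r4 of the CD200 receptor family. Of its 9 genes tested, 7 were higher and none lower, with a median of 1.92. At 2000 UMIs per cell 2 of 6 tested were higher, with a median of 1.18, and with DESeq2 5 of 9. Ctla4, which competes with CD28 for its ligands, was at 430 to 736 CPM with and 0 to 309 without (2.11 ± 0.21, edgeR adjusted p = 3.57e-10). Havcr2, which encodes TIM-3, was at 14.1 to 175 with and 0 to 26.5 without (2.23 ± 0.42, edgeR adjusted p = 0.000203). The ranges met for Havcr2 but not for Ctla4, and each hashtag moved the same way for both. Cd200r1, the receptor for CD200, had 165 UMIs in 73 cells with and 1 UMI in 1 cell without, a ratio of 87.5 per UMI sequenced (counting interval 15.5 to 3478). Cd244, Entpd1, Cd38 and Cd200r4 were the other 4, at 2.22, 1.62, 0.93 and 1.92 on the log2 scale. Cd244 did not pass at 2000 UMIs per cell, Cd200r4 neither there nor with DESeq2, and Cd38 lost its call in 14 of 19 alternatives, with log2 fold changes down to 0.075 and edgeR adjusted p up to 0.976. Btla (edgeR adjusted p = 0.0923) and Cd160 (edgeR adjusted p = 0.656) did not pass, at -1.38 and 0.39.

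Among 11 co-stimulatory and cytokine receptors, 5 were higher and none lower, with a median of 0.85. Tnfrsf9, a TNF receptor family member induced on antigen-stimulated T cells, was at 230, 253 and 475 CPM with Pdcd1 or Lag3 in h1, h7 and h8 and at 246, 80.3 and 333 in h3, h5 and h9. It was at 14.7, 0 and 28.7, and at 30.4, 0 and 0, in the cells without. The 2 classes did not overlap (4.11 ± 0.33, edgeR adjusted p = 2.25e-12). A Tnfrsf9 UMI was seen in 92 of 178 and 31 of 78 cells with (51.7% and 39.7%), and in 5 of 131 and 1 of 39 without (3.82% and 2.56%). Fibroblasts held one in 9.01% and 15.4%, above the cells without. At 2000 UMIs the shares were 31.9% and 21.3% with, 2.13% and 1.01% without and 4.96% and 5.15% in fibroblasts. Tnfrsf4, which encodes OX40, had 109 UMIs with and 2 without (ratio 28.9, counting interval 7.82 to 242). Tnfrsf18, Tnfrsf1b and Il2rb, the beta chain of the interleukin-2 and interleukin-15 receptors, were higher by 1.32, 1.05 and 0.94, while Cd28, Icos, Cd27 and Il2rg had log2 fold changes of 0.30, 0.24, -0.15 and 0.11 and did not pass.

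**Figure D2:**
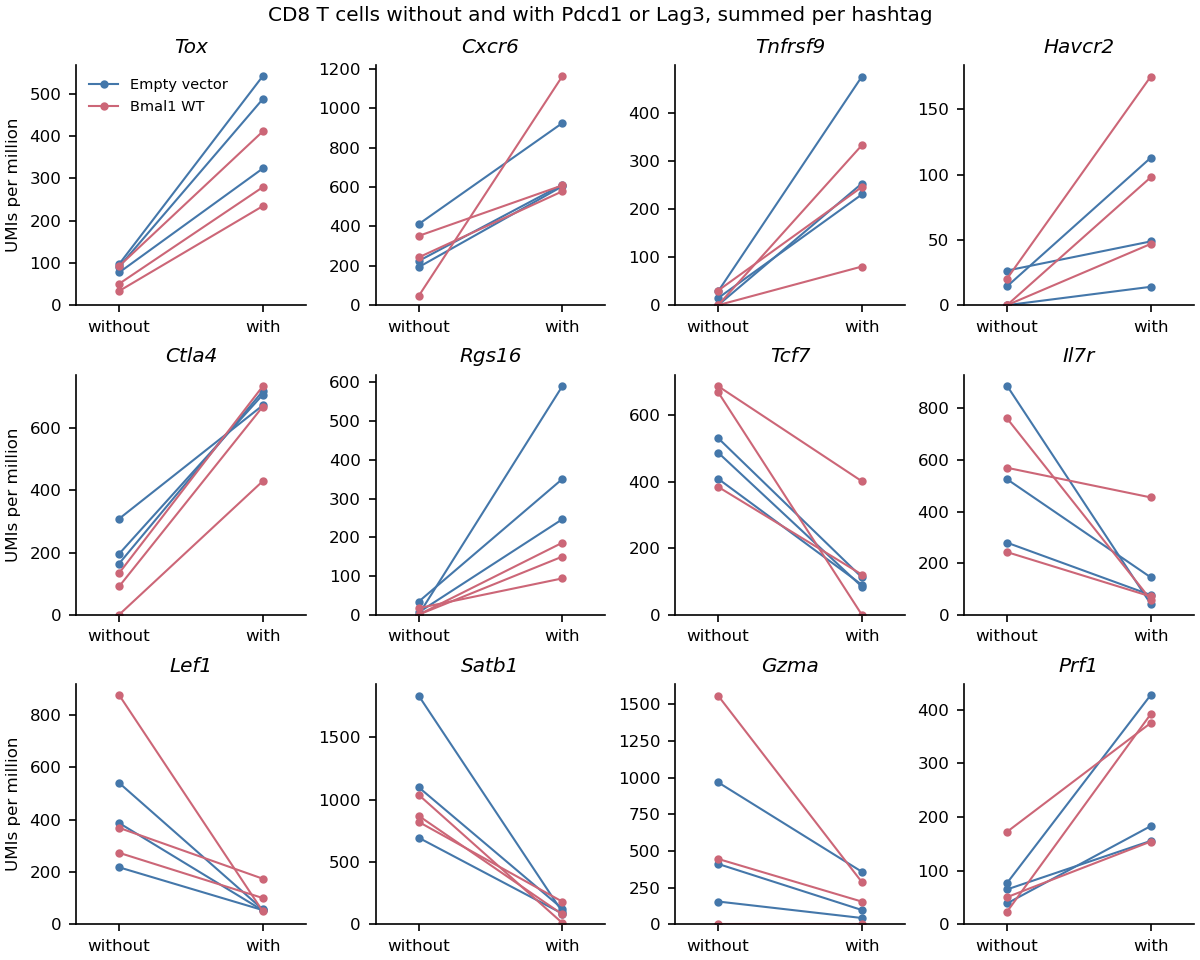
CPM of 12 genes in CD8 T cells without and with Pdcd1 or Lag3, with 1 line per hashtag and a linear axis for each gene. All 6 lines rise for Tox, Cxcr6, Tnfrsf9, Havcr2, Ctla4, Rgs16 and Prf1 and all 6 fall for Tcf7, Il7r, Lef1 and Satb1, while Gzma falls in 5 and is 0 on both sides in h9.

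Of 18 transcription factors of activation and dysfunction, 8 were higher and 1 lower, with a median of 0.60. Beside Tox, the largest differences were in Rbpj, the nuclear effector of Notch signalling (321 to 707 CPM with, 33.5 to 192 without, 2.06 ± 0.21, edgeR adjusted p = 3.88e-10), and Irf8, an interferon regulatory factor (60.2 to 375 with, 0 to 147 without, 1.90 ± 0.29, edgeR adjusted p = 4.12e-06). Nr4a2 and Nr4a1, orphan nuclear receptors of one family, differed in sign: Nr4a2 was higher in all 6 hashtags (1.88 ± 0.24, edgeR adjusted p = 9.92e-08), and Nr4a1 was lower by the fit (-0.93 ± 0.26, edgeR adjusted p = 0.0165) and in 4 of 6. Bhlhe40 and Id2 were higher by 1.56 and 1.14. Prdm1 and Hif1a passed at 1.01 and 0.68 but lost the call in 10 and 8 of 19 alternatives, as Nr4a1 did in 7, all 3 of them at 2000 UMIs per cell and with DESeq2. Tbx21 and Eomes, the T-box factors of effector and memory cells, were at -0.03 and -0.41 and did not pass (edgeR adjusted p = 0.98 and 0.565).

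Genes of naive, memory and stem-like T cells were lower in 17 of 17 tested, with a median of -2.08. At 2000 UMIs per cell 11 of 13 tested were lower, with a median of -2.53, and with DESeq2 16 of 17. Satb1, a chromatin organiser, had the smallest p of all genes: it was at 85.1, 98.4 and 125 CPM with in h1, h7 and h8 and at 79.1, 181 and 9.78 in h3, h5 and h9, against 694, 1835 and 1099, and 870, 821 and 1039, without (-3.29 ± 0.21, edgeR adjusted p = 2.21e-15). The highest sum with lay far under the lowest sum without. Lef1, the partner factor of TCF1 in naive T cells, was at 48.9 to 174 with and 218 to 877 without (-2.26 ± 0.24, edgeR adjusted p = 2.46e-09). Klf2, which drives S1pr1 transcription, was at 68.5 to 341 with and 656 to 1244 without (-2.22 ± 0.20, edgeR adjusted p = 1.7e-11). None of these 3 genes overlapped between the classes.

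Tcf7 was at 90.1, 112 and 84.6 CPM with Pdcd1 or Lag3 in h1, h7 and h8, and at 121, 401 and 0 in h3, h5 and h9. Without them it was at 409, 531 and 487, and at 384, 687 and 669. The Bmal1 WT hashtag h5 reached 401 with and so overlapped the lowest sum without, but all 6 hashtags were lower (-2.08 ± 0.25, edgeR adjusted p = 4.25e-08). A Tcf7 UMI was seen in 22.5% and 28.2% of the cells with and 64.1% and 64.1% of those without, and in 17.1% and 25.1% of the deeper fibroblasts. At 2000 UMIs these were 12.7% and 17.6%, 46.9% and 52.1%, and 2.30% and 2.82%. Il7r, the interleukin-7 receptor of long-lived T cells, was at 42.2 to 455 with and 243 to 888 without (-1.93 ± 0.25, edgeR adjusted p = 1.62e-07), its highest value with again in h5. Ccr7, Klf3, S1pr1 and Ly6c2 were also lower, with log2 fold changes of -2.88, -2.52, -1.86 and -1.81.

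Of 9 residency genes, 3 were higher and 1 lower, with a median of 0.78. Rgs16, a regulator of G protein signalling, was at 246, 590 and 350 CPM with and 5.88, 0 and 33.5 without in Empty vector, and at 150, 93.7 and 186 with and 0, 16.8 and 0 without in Bmal1 WT. The classes were fully separate (4.57 ± 0.38, edgeR adjusted p = 3.46e-12). Rgs1 was higher by 0.91 but did not pass with DESeq2. Cd69, an early activation and retention marker, was the one that was lower, at 137 to 300 with and 384 to 870 without (-1.19 ± 0.18, edgeR adjusted p = 4.55e-06). Itgae and Itga1, integrin chains of resident T cells, were both at 0.78 and did not pass (edgeR adjusted p = 0.307 and 0.111).

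The killing machinery did not move as 1 group: of 12 cytotoxic genes tested, 5 were higher and 1 lower, with a median of 0.43. Prf1, which encodes perforin, was at 154 to 427 CPM with and 23.1 to 172 without (1.81 ± 0.25, edgeR adjusted p = 7.63e-07), and Nkg7, a granule protein, at 1550 to 1861 with and 570 to 1307 without (0.85 ± 0.15, edgeR adjusted p = 5.45e-05). Gzma, a tryptase granzyme, went the other way, at 0 to 358 with and 0 to 1559 without (-1.83 ± 0.20, edgeR adjusted p = 3.1e-09), and did not pass when hashtags were assigned by the highest centred log count (-0.66, edgeR adjusted p = 0.361). Gzmb, which encodes granzyme B, was at 193, 112 and 656 with and 379, 67.6 and 373 without in Empty vector, and at 1237, 401 and 362 with and 607, 654 and 0 without in Bmal1 WT. It did not pass (0.31 ± 0.25, edgeR adjusted p = 0.61), with 4 of 6 hashtags higher. Gzmf and Gzmc were called higher, but 1 cell held 95.6% and 70.6% of their UMIs.

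Of 7 cytokines and chemokines tested, 4 were higher and none lower, with a median of 1.05. Ccl3 and Ccl4, chemokines that draw in immune cells, were at 93.7 to 491 CPM with and 0 to 212 without (2.39 ± 0.37, edgeR adjusted p = 5.44e-06), and at 534 to 1565 with and 0 to 1603 without (1.58 ± 0.29, edgeR adjusted p = 0.000167). Csf1, the macrophage growth factor, had 104 UMIs in 48 cells with and 3 UMIs in 1 cell without (ratio 18.4, counting interval 6.12 to 90.6). The other gene called higher was Ccl5, which lost its call in 7 of 19 alternatives, with log2 fold changes of 0.52 to 1.43 over them. Ifng did not pass, at 88.0 to 240 with and 0 to 415 without (0.22 ± 0.31, edgeR adjusted p = 0.806). With DESeq2, 1 of the 7 was higher.

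Killer lectin receptors, NK-type receptors that some CD8 T cells carry, were higher in 4 of 7 and lower in 1, with a median of 0.93. Klri2 had 255 UMIs in 78 cells with and 2 UMIs in 1 cell without (ratio 67.6, counting interval 18.5 to 562). Klre1 (2.17), Klrc1, which encodes NKG2A (1.10), and its partner Klrd1, which encodes CD94 (0.93), were the others. Klra7 was lower at -2.37. NK markers as a list did not move with them: 4 of 9 were tested and none passed. Of 3 gamma-delta genes tested, Tcrg-C2, a gamma constant gene, was higher in all 6 hashtags (141 to 313 with, 0 to 116 without, 2.60 ± 0.34, edgeR adjusted p = 2.42e-07), whereas the delta constant gene Trdc had 7 UMIs with and 12 without. Without cells holding a UMI of Trdc, Ncr1 or Klrb1c, 265 genes were higher and 151 lower.

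The remaining lists moved less. Of 14 glycolysis genes 2 were higher, Gapdh (0.96) and Tpi1 (0.82), and none lower, with a median of 0.43, but at 2000 UMIs per cell none of 9 tested passed. Of 18 interferon-stimulated genes none was higher and 5 were lower, with a median of -0.80, and with DESeq2 or at 2000 UMIs per cell 1 was lower. Of 5 chemokine receptors Cx3cr1 was higher (0.97, but -0.20 at 2000 UMIs per cell) and Cxcr4 lower (-1.05). Of 17 heat shock and immediate early genes, which tissue dissociation also raises, 2 were higher (Jund and Dusp1, 0.71 and 0.998) and 4 lower, but at 2000 UMIs per cell none was lower, and with DESeq2 1 was higher and 2 lower. Of 11 cell cycle genes outside the rule 1 was higher, Pclaf (2.13, but not with DESeq2), and of 7 clock genes none passed, with Arntl, the gene of BMAL1, at 0.36 on 42 UMIs with and 16 without (edgeR adjusted p = 0.831). The 5 dendritic genes tested were all called higher, with 3 Empty vector cells holding most of their UMIs as given above. Without the cells of 10 or more other-type marker UMIs, an alternative chosen after seeing the data, 1 of these 5 was still tested and it did not pass, while 273 genes were higher and 161 lower in all. Ighm, the 1 B cell gene tested, was at -0.82 and did not pass (edgeR adjusted p = 0.0782), and no macrophage, fibroblast or melanoma marker had enough UMIs to be tested.

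**Figure D3:**
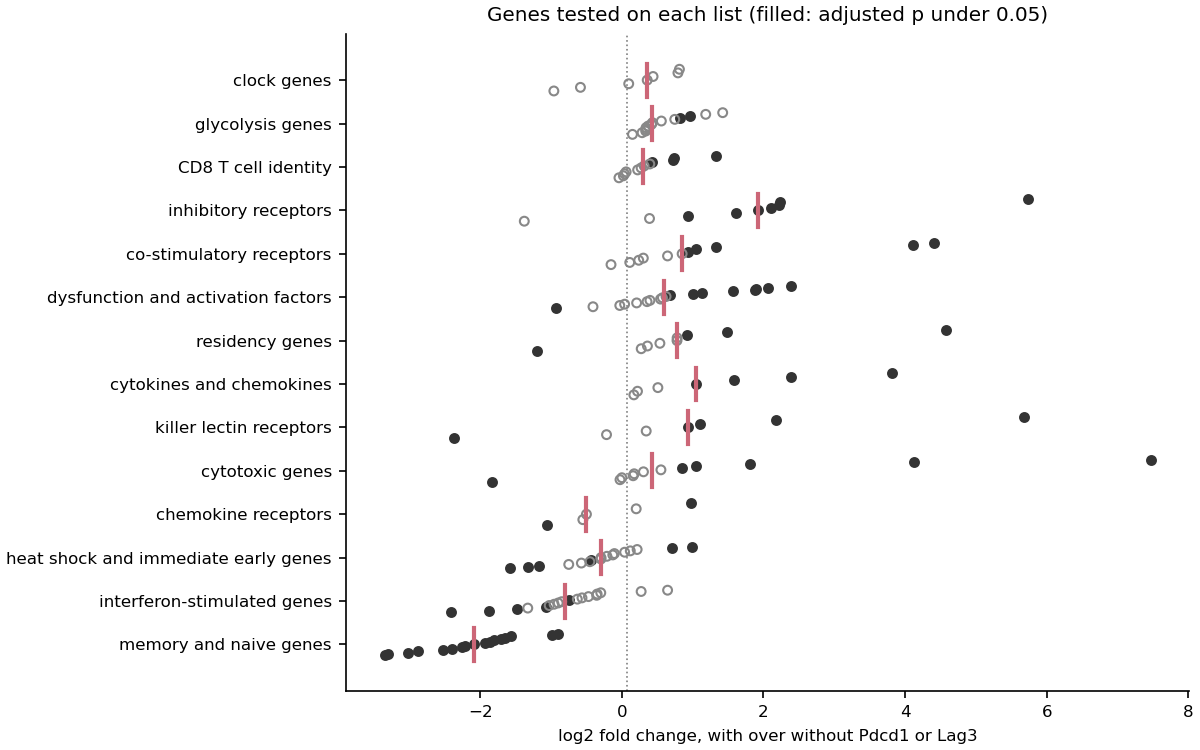
Log2 fold change of each tested gene, with over without Pdcd1 or Lag3, for 14 gene lists. Filled circles have an edgeR adjusted p under 0.05, red bars mark list medians and the dotted line is the median of all genes, 0.08. All 17 memory and naive genes are filled and left of 0, with a median of -2.08. The inhibitory receptor list, which also holds ectoenzymes, has a median of 1.92.

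By size of the log2 fold change, the 10 genes highest in the cells with Pdcd1 or Lag3 were Gzmf, Nrgn, Ikzf4, Il1r2, Bcl2l14, Cd200r1, Klri2, Nrn1, Sema6d and Sulf2. Ikzf4, which encodes the Ikaros family factor Eos, had 80 UMIs in 41 cells with and none without. Its ratio was 14.1 against a floor of 3 UMIs over the group, with the lower end of the counting interval at 11.2. Nrgn, which encodes the calmodulin-binding protein neurogranin, had 130 UMIs in 43 cells against none. Its ratio to the same floor was 23.0, with the lower end of the counting interval at 18.4. Sema6d, a semaphorin, had 324 UMIs in 97 cells against 4 in 4 cells (5.28 ± 0.45, edgeR adjusted p = 6.07e-12), and all 6 sums were apart. Nrn1, which encodes neuritin, had 116 UMIs against 1 (ratio 61.5, counting interval 10.8 to 2452) and Sulf2, a heparan sulfate sulfatase, 105 against 1 (ratio 55.7, counting interval 9.78 to 2221). Il1r2 and Bcl2l14 rested on 8 and 6 cells. Of the 10, Gzmf, Nrgn, Il1r2, Bcl2l14 and Nrn1 did not pass with DESeq2 (DESeq2 adjusted p = 0.529 for Nrgn and 0.0746 for Nrn1). Among the 10 lowest were Cxcl10, Thbs1, Hmox1, Satb1, Sh3bp5, Nsg2, Il6ra, Ccr7 and D1Ertd622e. Of these, Cxcl10, Thbs1 and Hmox1 had 46.5%, 81.1% and 82.6% of their UMIs without Pdcd1 or Lag3 in 1 cell, and they did not pass with DESeq2. Over all called genes, 7 higher and 2 lower took more than 50% of their UMIs from 1 cell.

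Cells were then grouped by how many Pdcd1 and Lag3 UMIs they held. In classes of 0, 1, 2, 3 to 5 and 6 or more UMIs, of 170, 43, 40, 73 and 100 cells in both libraries, Tox was at 79.2, 114, 345, 317 and 591 CPM. Tnfrsf9 was at 15.0, 55.1, 124, 250 and 387, and Havcr2 at 15.0, 13.8, 41.2, 60.1 and 114. Cells just inside the rule, with 1 UMI, stood nearer to those just outside than to those with 2 UMIs for Tox. Tcf7 was at 471, 196, 227, 102 and 59.7, and Il7r at 426, 193, 180, 94.8 and 87.9. In the pooled cells the step from 0 to 1 UMI was the largest for both, but for Il7r in Bmal1 WT, at 462, 361 and 35.8 in the first classes, the largest step lay between 1 and 2. These values are descriptive, and the median depth of the classes was 4723, 4990, 5044, 4760 and 7166.5 UMIs.

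**Figure D4:**
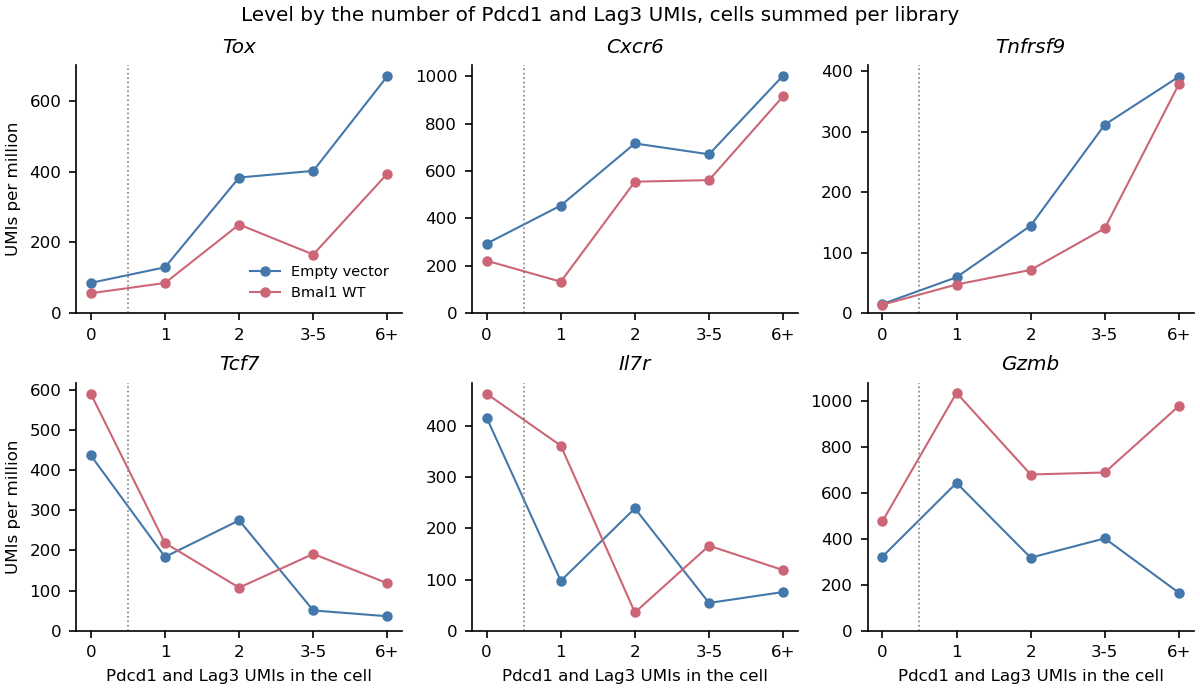
Level of marker genes in CD8 T cells grouped by their Pdcd1 and Lag3 UMIs, in CPM of the pooled cells of each class, by library. The dotted line is the edge of the rule; Tox, Cxcr6 and Tnfrsf9 are highest at 6 or more UMIs and Tcf7 and Il7r highest at 0 in both libraries, and over both libraries the classes hold 170, 43, 40, 73 and 100 cells.

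Cells were also split by which receptor they held. Over both libraries Tox was at 242 CPM in the 87 cells with Pdcd1 only, 257 in the 25 with Lag3 only and 535 in the 144 with both. Tnfrsf9 was at 113, 125 and 373. Havcr2 was at 27.2, 26.4 and 109. The cells with both receptors held the highest level of each, at a median of 6691.5 UMIs per cell against 4925 and 4990. Gzmb had another order, at 438 with Pdcd1 only, 923 with Lag3 only and 454 with both. Tcf7 and Havcr2, markers of the stem-like and terminal ends, were found together in 2 of 178 and 4 of 78 cells, while Tcf7 alone was in 38 and 18 and Havcr2 alone in 33 and 19. These are values per cell class with no test, and 25 cells with Lag3 only, 18 and 7 by library, are few.

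Empty vector and Bmal1 WT were then compared within the cells with Pdcd1 or Lag3. No gene of 4844 tested passed (0%), by edgeR or by DESeq2, with 251 and 79 genes at an unadjusted p under 0.05. In simulated data the edgeR test recovered 8.16% of genes drawn at a log2 fold change of 1, so differences of that size could be missed. The sums of the 2 groups did not overlap for 529 genes (10.9%). Every list above had 0 genes called between the groups. In the cells without Pdcd1 or Lag3, 0 of 2870 genes passed by edgeR and 1, Ikzf2, by DESeq2, with 124 and 58 at an unadjusted p under 0.05.

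The 5 genes with the smallest p are given as values. Ccl5, the T cell chemokine RANTES, was at 3915, 4834 and 5272 CPM in h1, h7 and h8 and at 10177, 6517 and 13770 in h3, h5 and h9 (1.12 ± 0.19, edgeR adjusted p = 0.11). Each Bmal1 WT sum was above each Empty vector sum, and over 18 alternatives the log2 fold change was 0.84 to 1.40 with adjusted p from 1.05e-18 to 0.611, under 0.05 in 4. In the cells without Pdcd1 or Lag3, Ccl5 was at 6330, 966 and 4373 and at 5726, 5280 and 254, with the groups overlapping. Irf8 was at 316, 323 and 375 and at 95.8, 60.2 and 196 (-1.63 ± 0.31, edgeR adjusted p = 0.177). Ptma, which encodes prothymosin alpha, was at 2165, 2262 and 1889 and at 1341, 1385 and 1506 (-0.58 ± 0.12, edgeR adjusted p = 0.344). Ifitm1 (-4.82, edgeR adjusted p = 0.11) rested on 11 cells and Sema4c (-2.55, edgeR adjusted p = 0.505) on 61 UMIs. Both were lower in Bmal1 WT without overlap.

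None of the markers of the cells passed the test between the groups. Tox had a log2 fold change of -0.65 ± 0.24, Bmal1 WT over Empty vector (edgeR adjusted p = 0.821), with the highest Bmal1 WT sum, 411, above the lowest Empty vector sum, 323. Cxcr6 was at 0.06 ± 0.25 and Cd8a at -0.12 ± 0.18. Gzmb was at 193, 112 and 656 CPM in Empty vector and at 1237, 401 and 362 in Bmal1 WT (1.03 ± 0.50, edgeR adjusted p = 0.929). A Gzmb UMI was seen in 48 of 178 cells (27.0%, 20.6 to 34.1) and 47 of 78 (60.3%, 48.5 to 71.2), and at 2000 UMIs per cell in 18.8% and 42.4%. Those are shares of cells pooled over each library, whereas the hashtag sums of h5 and h9 lay under that of h8. Arntl was at 36.3, 28.1 and 8.05 and at 20.8, 20.1 and 9.78 CPM, on 33 and 9 UMIs, too few to be tested.

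**Figure D5:**
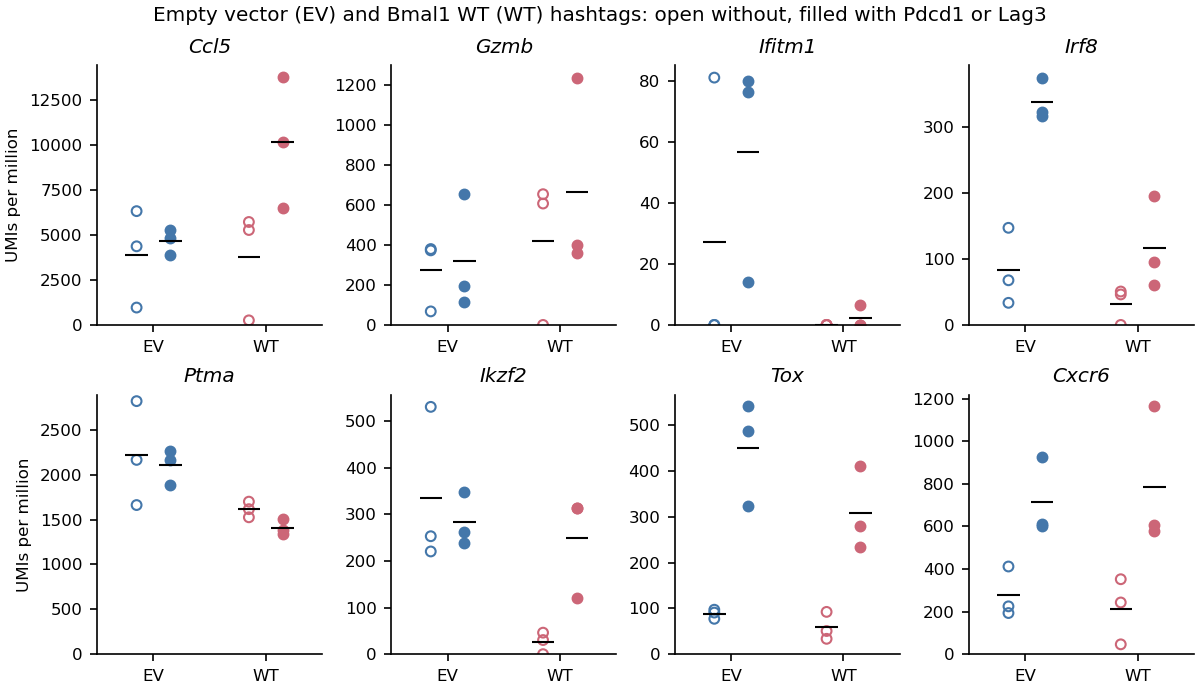
CPM of 8 genes in each hashtag of Empty vector (EV) and Bmal1 WT (WT), with open circles for CD8 T cells without and filled circles for those with Pdcd1 or Lag3, and lines for means. For Ccl5, filled circles run from 3915 to 5272 in Empty vector and from 6517 to 13770 in Bmal1 WT, while Tox and Cxcr6 overlap between the groups.

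Whether the difference between the cells with and without Pdcd1 or Lag3 itself differed between groups was tested as an interaction. Of 6059 genes, 3 passed (0.0495%), Ikzf2, Il1b and Igfbp4, each with an edgeR adjusted p of 0.0191, and with DESeq2 none did, with 221 and 44 genes at an unadjusted p under 0.05. Ikzf2, which encodes the Ikaros family factor Helios, was at 348, 239 and 262 CPM with Pdcd1 or Lag3 in the Empty vector hashtags and 121, 314 and 313 in the Bmal1 WT hashtags. Without them it was at 221, 531 and 253, and at 30.4, 0 and 46.2. The groups overlapped among the cells with and were apart among the cells without, where the Bmal1 WT hashtags had 37 cells in all. For the other 2 genes, 1 cell held 71.7% of the Il1b UMIs of the cells with Pdcd1 or Lag3, and all 42 Igfbp4 UMIs of those cells came from h1. Tox and Cxcr6 had interaction log2 fold changes of 0.04 ± 0.49 and 0.30 ± 0.40 (edgeR adjusted p = 1 for each).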

How the data were processed

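Per the labels, libraries of both groups used version 3.1 of the Chromium 3' droplet chemistry (10x Genomics), and the submitters' processing notes name Cell Ranger and mm10. The deposited values were raw UMI counts per gene and cell, with counts of hashtag antibodies for the same barcodes, made by the authors with no further normalization. The matrix labelled Bmal1 bHLH was not used here because its files are a copy of the Bmal1 WT files. Cells with at least 200 genes and at most 20% mitochondrial UMIs were kept, which left 3978 of 4147 and 2386 of 2785 barcodes. A hashtag was called at or above a minimum set per antibody and library (64, 19 and 135 UMIs for h1, h7 and h8, and 159, 17 and 72 for h3, h5 and h9), and cells with none (388 and 660) or several (368 and 105) stayed out of the hashtag sums. No doublet caller was run.

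UMIs were summed per hashtag and class. Genes with at least 50 UMIs over the sums were tested with the quasi-likelihood test of edgeR 4.0.16 in R 4.3.3, with total UMIs as library size, Benjamini-Hochberg adjustment over all genes tested and a threshold of 0.05. Cells with and without Pdcd1 or Lag3 were compared over 12 sums with the hashtag as a block, since both sums of a hashtag come from the same pool of cells, and the 10 genes of the rule got no test. Groups were compared over 6 sums. Shares were tested with a two-sided exact permutation test over hashtags (scipy 1.17.1), which cannot go below 0.1. Intervals are exact Clopper-Pearson at 95%. Thinning gave each cell 2000 UMIs and left out shallower cells. For the gene tests, only the Pdcd1 and Lag3 terms of the rule were read again after thinning. Expected shares of cells with a UMI of a gene kept the classes of full depth. Background cells were fibroblasts with at least 5 collagen UMIs and no UMI of Ptprc, Cd3e or Cd3d.

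The members and gene lists were chosen with earlier results of these data known. Genes named are the 6 markers, genes of the lists (T cell identity, inhibitory and co-stimulatory receptors, transcription factors, memory and naive, residency, cytotoxic, cytokine, chemokine receptor, killer lectin, glycolysis, interferon-stimulated, cell cycle, heat shock, clock and 7 other-cell lists), the 10 largest changes each way, and, where fewer than 5 genes passed, the 5 smallest p-values; gene models were counted and not named, and some genes are not reported here. Alternatives were DESeq2 1.42.0, TMM normalization, other gene and cell filters, thinning, another hashtag assignment, no replicate block, leaving out each hashtag, and leaving out cells with other-type markers. Tests were tried on simulated data first, with a spread that was set and not taken from these data. At drawn log2 fold changes of 1 and 2, the group test in cells with Pdcd1 or Lag3 recovered 8.16% and 65.9% of changed genes. The test of cells with against without recovered 21.1% and 93.0%, and the interaction test 0% and 6.25%. Positions are from GENCODE M21.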

Additional observations from a re-analysis of the deposited data

Results flagged for a closer look

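For 3 genes the difference between CD8 T cells with and without Pdcd1 or Lag3 itself differed between the groups by the interaction term, each with an edgeR adjusted p of 0.0191. The log2 interaction, Bmal1 WT minus Empty vector, was 3.09 for Ikzf2, -6.56 for Il1b and -7.30 for Igfbp4. Over the alternatives, Ikzf2 ranged from 0.98 to 4.46 and passed in 7 of 18. Il1b ranged from -7.21 to -1.31 and passed in 7 of 15, with 1 cell holding 71.7% of its UMIs in the cells with Pdcd1 or Lag3. Igfbp4 ranged from -8.01 to -1.55 and passed in 8 of 17, with 42 UMIs in the cells with Pdcd1 or Lag3 and 75 in those without. The part of single cells and of low counts in these values was not tested.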

How the results depend on the processing

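The hashtags within a group came from 1 droplet library, no source tied a hashtag to an animal, and the smallest sums held 7 and 12 cells, so differences between groups rest on few cells. The cause of each change below was not tested. Against the 428 genes that differed between cells with and without Pdcd1 or Lag3, DESeq2 called 214, of which 213 were shared. Thinning to 2000 UMIs called 125, of which 111 were shared. When thinned, 292 of the 428 were still tested, 7 of them at the opposite sign. Leaving out 1 hashtag gave 270 to 365, lowest without h8, and the fit with no replicate block called 336, of which 327 were shared. The percent of calls that were higher was 63.1, and 54.7 with DESeq2. Of 1740 values for 96 named genes under the alternatives, 1549 kept direction and call, 186 lost the call and 5 changed sign: Bcl2l14 (-0.10) and H2-Aa (-0.61) with DESeq2, Cx3cr1 (-0.20) and H2-Ab1 (-0.12) when thinned, and Cd74 (-0.24) without h1, which was up to 2.58 (without h7) when another hashtag was left out.

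Between groups in the cells with Pdcd1 or Lag3, 38 genes passed with no filter on genes, 1 when thinned (Ccl5), and 0 to 8 without 1 hashtag: 8 without h8, 1 without h5 (Ccl5) and 1 without h9 (Irf8). Of the 8 without h8, 1 was higher in Bmal1 WT (Ccl5) and 7 lower, among them Il1b and the dendritic markers Cd74, H2-Aa and H2-Ab1. In Empty vector, 3 cells held 1465 of the 1703 UMIs of the dendritic markers. In the cells without, 1 passed with DESeq2 (Ikzf2), 11 with no filter on genes, and 1 (Ikzf2) without cells of 10 or more other-type UMIs, chosen after seeing the data. In the interaction test, 3 genes passed in the main fit and 0 with DESeq2, with at least 100 UMIs or with no cell filter. With no filter on genes 5 passed, 3 of them shared with the main fit, and when thinned 1 (Ccl5). With hashtags by highest centred log count 4 passed, of which Il1b was shared. Leaving out h3, h5 or h9 gave 0, and leaving out h1 gave 1 (Hspa1b). There were 2 without h8, both shared, and 5 without h7, of which 2 were shared. The difference in the share of all cells, 0.326 points, changed sign with no cell filter (-0.0281), with hashtags by highest centred log count (-0.881) and without h7 (-0.985) or h8 (-0.289), and was 2.25 without h1. The difference in the share of CD8 T cells was 11.6 to 21.8 points without 1 hashtag and kept its direction under every alternative run.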

Other observations

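Pooled over each library, Ccl5 and Gzmb had different levels among the CD8 T cells with many Pdcd1 and Lag3 UMIs. In classes of 0, 1, 2, 3 to 5 and 6 or more UMIs, Ccl5 was at 4430, 6047, 4659, 4461 and 3586 CPM in Empty vector, whereas Bmal1 WT had 4239, 5016, 6570, 8920 and 11426 CPM. Gzmb was at 323, 644, 318, 402 and 166 CPM in Empty vector, against 476, 1036, 680, 689 and 978 CPM for Bmal1 WT. These are pooled cells of 1 library each, with 131, 29, 31, 47 and 71 cells for Empty vector and 39, 14, 9, 26 and 29 for the Bmal1 WT library, and the difference was not tested by class. Of the 178 Empty vector cells with Pdcd1 or Lag3, 115 were from h1. By hashtag, the Gzmb sums of the cells with Pdcd1 or Lag3 overlapped between the groups and Gzmb did not pass. Its Bmal1 WT sum was highest in h3, while h5 and h9 lay under the Empty vector hashtag h8.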
